A study of Mus musculus with 11 samples.

Results

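The genes examined here encode parts of the motile cilium. They were all entries of the raw count table whose symbol begins with Dnah, Dnai, Dnaic, Cfap, Rsph or Tekt followed by a digit, plus Foxj1. This rule found 43 of 24421 entries, namely 11 Dnah, 2 Dnaic, 17 Cfap, 7 Rsph and 5 Tekt genes and Foxj1. Of these, 42 had enough counts to be tested, together with 16574 genes in all. The remaining member, Rsph6a, a radial spoke gene, had 0 to 5 counts in a library and was not tested. The rule used symbols only and no measured value.

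Gene expression was profiled by RNA-seq in whole tissue of the main olfactory epithelium (MOE), from a mouse line that lacks the olfactory Taar gene cluster from Taar2 to Taar9. The 11 libraries came from 3 wild type, 4 heterozygous (1 copy of the cluster deleted) and 4 homozygous (both copies deleted) samples, and no other allele, transgene or treatment was given for any group. The labels give all samples as C57BL/6 at postnatal days 1 to 2, whereas the reporting summary of the study gives an older postnatal age and a background mixed with 129 for this line, and which applies was not settled. The labels give neither sex nor litter, and do not say whether each library came from a separate animal, so that p-values measure the spread between these samples, which may be technical. The deletion was seen in the libraries, since the summed count of the Taar2 to Taar9 genes was at most 3 in each homozygous library and at least 31 in every other.

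Motile cilia beat because dynein motors, fixed in rows on the outer microtubule doublets, slide neighbouring doublets against each other. Radial spokes link the doublets to a central pair of microtubules, and tektins and other filament proteins line the inside of the doublet wall. Foxj1 is the forkhead transcription factor that switches on this gene programme. In the nose, beating cilia belong to the multiciliated cells of the respiratory epithelium, whereas the cilia of olfactory sensory neurons (OSNs) carry the odour receptors and do not beat. Whole MOE tissue holds both kinds of cell, and in such bulk samples fewer ciliated cells and less RNA per ciliated cell cannot be told apart.

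The depth was 9239866 to 14632525 counts per library. In homozygous replicate 2 the ribosomal RNA gene Rn45s took 25.8% of the counts, against 0.0848 to 0.786% elsewhere. On the first principal component of all tested genes other than the members, which carried 41.6% of the variance, the libraries fell into 2 sets that cut across genotype. Of the wild type libraries, replicates 1 and 2 were in set 1 and replicate 3 in set 2. Heterozygous replicates 3 and 4 were in set 1, with replicates 1 and 2 in set 2, and homozygous replicates 1 and 2 were in set 1, with replicates 3 and 4 in set 2. The sets were found in the data, not in the labels, and values are given for each of them below without a test.

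The labelled tissue was checked by its markers. Foxj1 was detected in every library, with 1727 to 3427 counts. Of 76 other axonemal and ciliated cell genes with an entry, 74 passed the filter, as did 16574 of all 24421 entries. Passing it does not require counts in every library, since Pih1d3 passed and was at 0 in homozygous replicate 4. The respiratory secretory genes summed to 4660 to 7323 CPM (counts scaled to a common library total) in a library, and the mature OSN genes to 1251 to 2283 CPM. Bpifa1 was the largest part of the secretory sum, at 2983 to 5103 CPM. Of the same list, Scgb1a1 had 0 or 1 count in a library and Muc5ac was at 4.04 to 18.0 CPM. The choroid plexus also bears Foxj1-driven motile cilia, and its defining gene Ttr had 0 to 10 counts in a library. From the same list of choroid plexus genes, Folr1 was at 2.51 to 3.94 CPM and Kcnj13 at 4.42 to 9.08 CPM. Otx2 and Clic6 were higher, with means of 139 and 289 CPM, so that the list as a whole was not at 0.

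Per length, Foxj1 was the member with the highest level, at a mean of 86.5 CPM per kb of exon over the 11 libraries (range 53.2 to 116). Among the radial spoke genes Rsph1, a spoke head subunit, had 51.3, Rsph9, another spoke head subunit, 22.9, Rsph4a, a spoke head scaffold, 14.7, and Rsph3a, of the spoke stalk, 7.46 CPM per kb. Among the Cfap genes Cfap126, which acts in basal body docking, had 48.4, Cfap20, of the seam between the tubules of a doublet, 32.6, Cfap36 30.6 and Cfap44, of the complex that tethers an inner dynein arm, 14.7 CPM per kb. The ranges of Rsph1 (32.6 to 73.0 CPM per kb) and Cfap126 (30.8 to 79.9) overlapped almost wholly.

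Tektins split into abundant and rare members. Tekt2, Tekt1 and Tekt4 had means of 30.03, 25.4 and 17.5 CPM per kb, and Tekt5 and Tekt3 had 1.54 and 1.31. The dynein heavy chain genes, whose exons add up to between 12767 and 26820 bases, had the lowest family median, at 3.53 CPM per kb, beside 17.5 for the tektins. Lengths here count all annotated exons, and the longest transcript can be far shorter (16685 bases for Dnah8, and 1034 against 1774 for Cfap126). The order of the members therefore rests on this choice. The outer arm motor Dnah5 had 7.89, the inner arm motor Dnah10 5.41, the outer arm motor Dnah9 4.50 and the inner arm motor Dnah6 4.24 CPM per kb. The outer arm intermediate chains Dnaic2 and Dnaic1 had 12.5 and 6.75 CPM per kb. At the low end stood Dnah17 (0.359) and Dnah8 (0.285), which are heavy chains best known from the sperm tail, and Rsph6a (0.0473), a spoke head gene best known from testis.

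**Figure D1:**
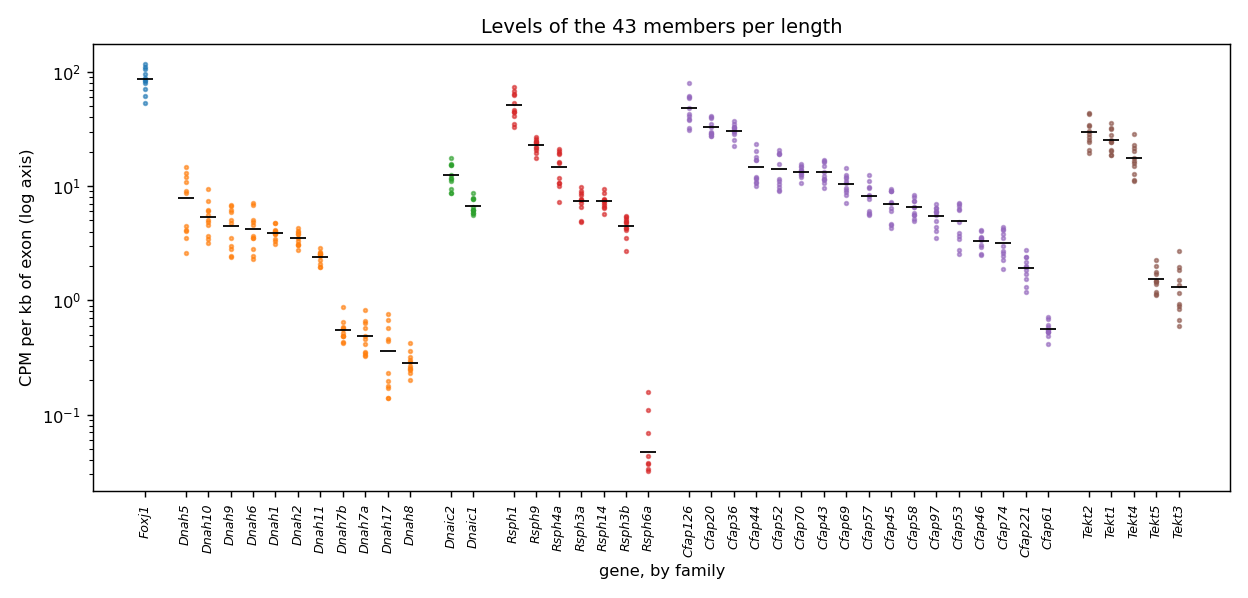
Levels of the 43 members in CPM per kb of exon on a log axis, by family; each dot is 1 of the 11 libraries and each bar the mean, and libraries at 0 (3 for Rsph6a) cannot be drawn. Foxj1 stands at 86.5 CPM per kb, and Rsph6a lies far below all other members at 0.0473.

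The members lie on 16 chromosomes. In mm10 Foxj1 spans chr11:116330704-116335399 on the minus strand with 2623 bases of exon. Counts of near-identical copies are uncertain, since how reads with several positions were counted is not stated. Of the 50-base stretches of its longest transcript, Rsph3b had 24.2% and Rsph3a 26.0% that occurred in no other gene, the copy being the other of these genes in each case. For Dnah7b and Dnah7a, heavy chains of an inner arm, this share was 51.6 and 59.7%, and for 38 members it was above 95%. The strand setting of the counting is not stated either, and genes on the opposite strand covered 20.8% of the exon bases of Tekt2, 9.89% of those of Rsph3a and 8.36% of those of Cfap52.

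The main comparison asked whether loss of the Taar cluster changed the axoneme genes. No member passed the test. Foxj1 was at 277, 220 and 139 CPM in wild type replicates 1 to 3, at 233, 161, 210 and 291 CPM in heterozygous replicates 1 to 4 and at 254, 305, 219 and 185 CPM in homozygous replicates 1 to 4. The lowest library was a wild type one and the highest a homozygous one, and the genotypes overlapped. The means were 212 ± 69.0 (SD, n = 3), 224 ± 54.2 (n = 4) and 241 ± 51.2 CPM (n = 4). The log2 fold change of Foxj1 was 0.18 ± 0.26 (SE) in homozygous against wild type samples, with a 95% interval of the fold from 0.767 to 1.68 (adjusted p = 0.996, edgeR quasi-likelihood test with Benjamini-Hochberg adjustment). In heterozygous samples it was 0.08 ± 0.26 against wild type, and homozygous against heterozygous samples gave 0.11 ± 0.24 (adjusted p = 1.0 in both, edgeR). The value against wild type in homozygous samples depended on single libraries. It was -0.046 without wild type replicate 3, 0.42 without wild type replicate 1 and 0.04 without homozygous replicate 2, the library rich in Rn45s, and it was 0.31 with the replicate block on these genotypes alone. A two-sided exact permutation test of the Foxj1 level gave p = 0.629, 0.743 and 0.657 for the same comparisons, where the smallest p it can give is 0.0571 for 3 against 4 and 0.0286 for 4 against 4 libraries.

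**Figure D2:**
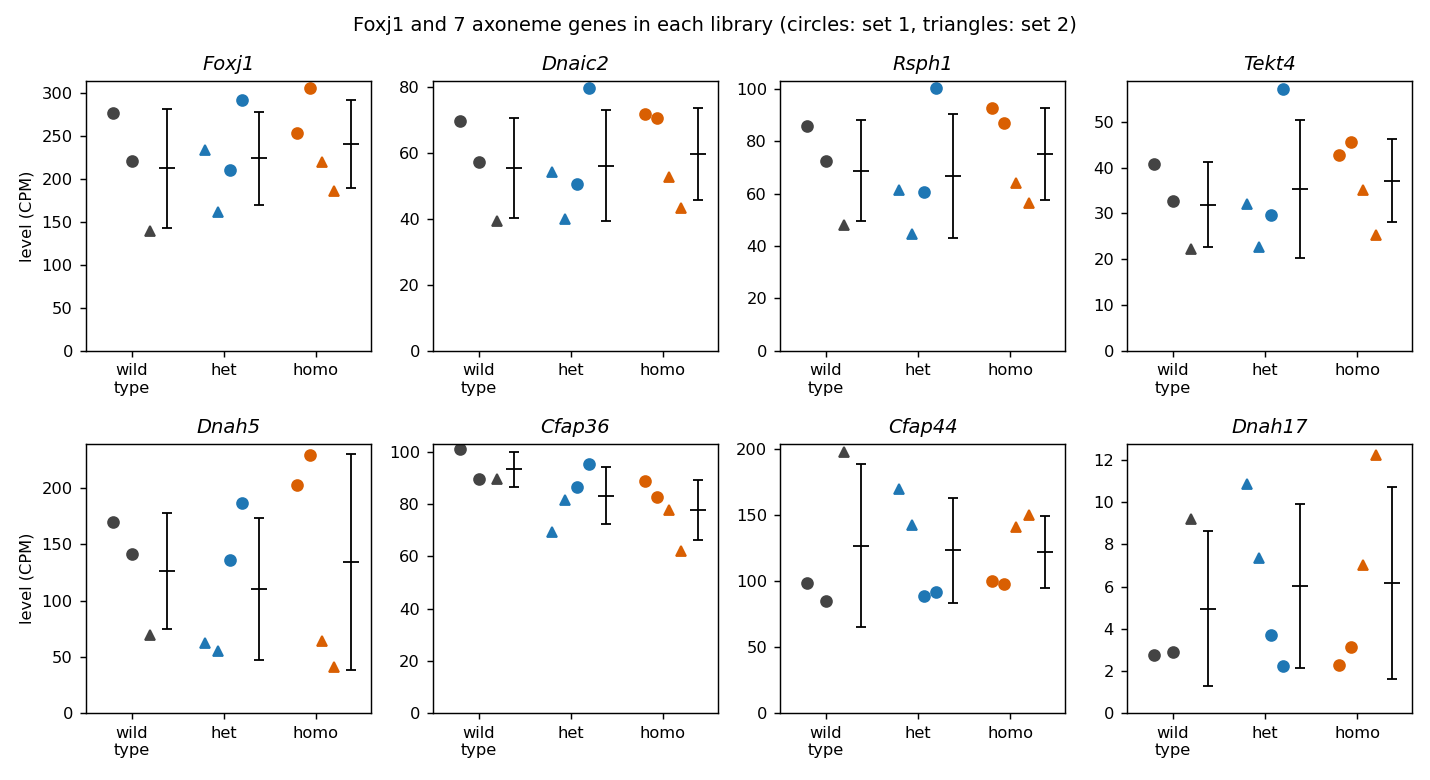
Levels (CPM, linear axes from 0) of Foxj1 and 7 axoneme genes in each library by genotype; circles are set 1 and triangles set 2, and the bar beside each group is its mean with SD (n = 3 wild type, 4 heterozygous, 4 homozygous). The genotypes overlap except for Cfap36, where the homozygous libraries (62.0 to 88.7 CPM) lie just below the wild type ones (89.4 to 101 CPM), and Dnah5, Cfap44 and Dnah17 separate by set.

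Over all members the differences between genotypes were small. At an adjusted p under 0.05, 0 of the 42 members were called in each of the 3 comparisons by edgeR, as were 0% of all tested genes, and DESeq2 also called 0 members. At an unadjusted p under 0.05 the count was 0 in all 3 comparisons by either tool, and the share of all tested genes was 3.02% for homozygous and 2.24% for heterozygous samples, each against wild type, and 0.561% for homozygous against heterozygous samples by edgeR. The median log2 fold change of the members was 0.05, -0.04 and 0.07, beside 0.02, 0.0018 and 0.0062 over all genes. These medians had no fixed sign, since leaving out single libraries gave -0.033 to 0.097, -0.19 to 0.059 and -0.015 to 0.19. In the first comparison the lowest value came when wild type replicate 3 was left out and the highest when replicate 1 was. In the others the ends came from leaving out heterozygous replicate 2 or replicate 4. In homozygous against wild type samples 26 members were higher and 16 lower, in heterozygous against wild type 17 and 25, and in homozygous against heterozygous 27 and 15. Over all tested genes the same splits were 8746 and 7828, 8356 and 8218, and 8580 and 7994. These comparisons share samples. The 95% interval of the fold change stayed within 2-fold either way for 36, 37 and 37 of the 42 members, and for the others a change of 2-fold was not excluded by the spread of the libraries.

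**Figure D3:**
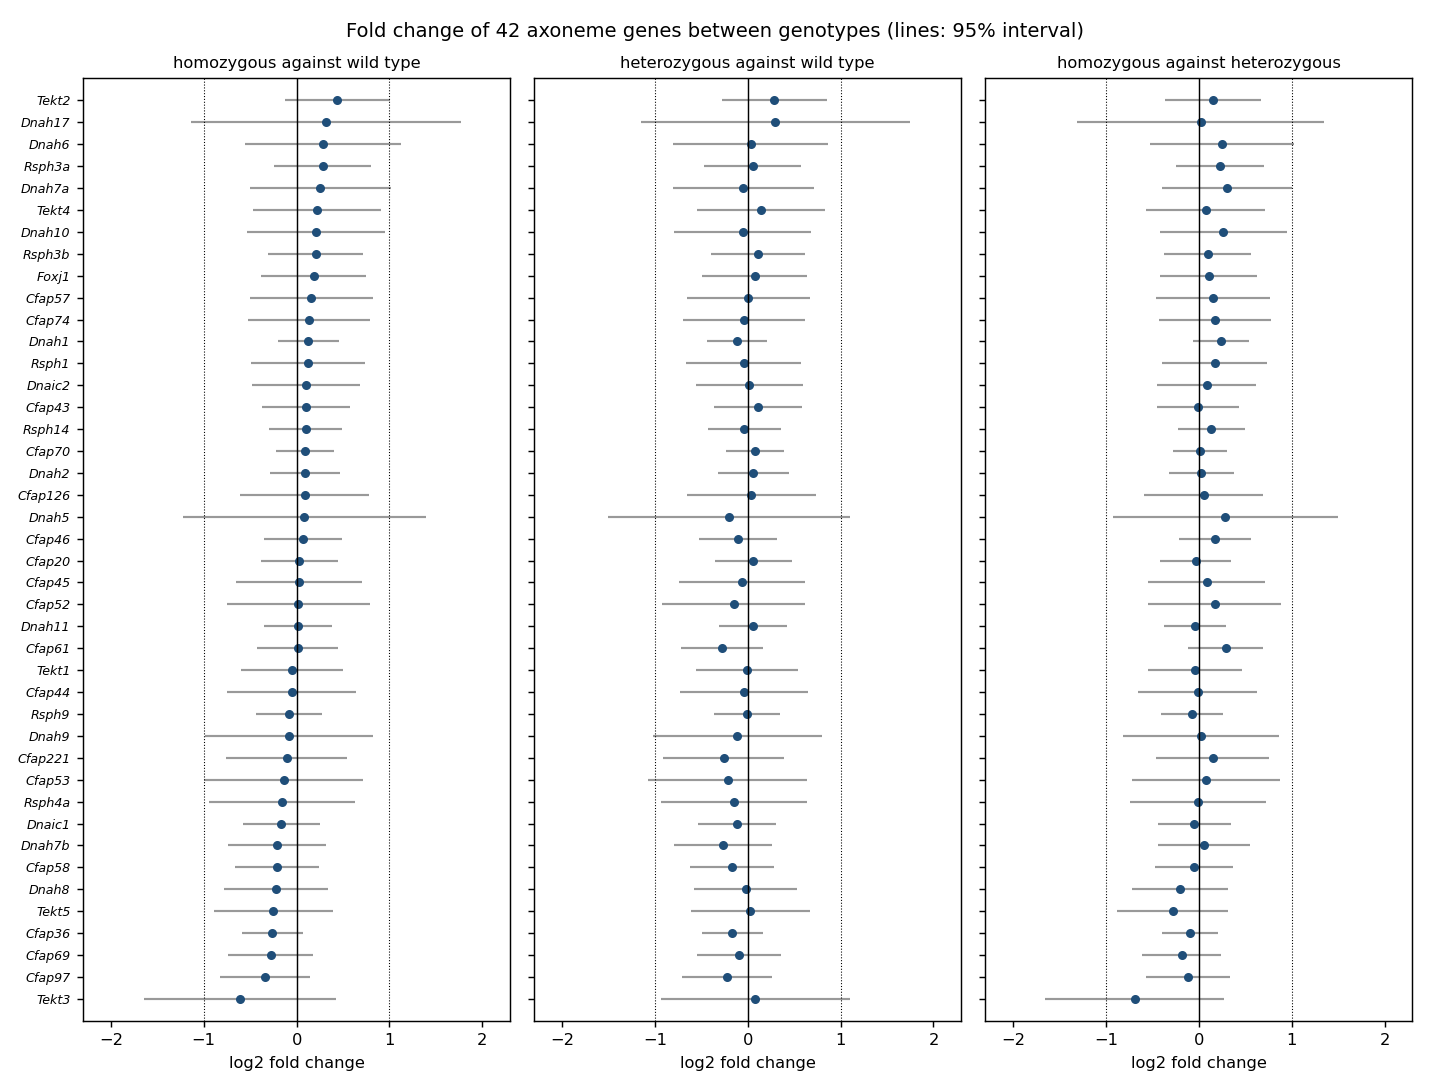
Log2 fold change (dots) with its 95% interval (lines) of the 42 tested members in the 3 comparisons, ordered by the first; dotted lines mark 2-fold. Every interval crosses 0, and those of Tekt3, Dnah5 and Dnah17 are the widest in homozygous against wild type samples.

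The members with the lowest p-values were looked at one by one. Cfap36, a ciliary protein of the ARL3 pathway, was at 101, 89.6 and 89.4 CPM in wild type, at 69.4, 81.6, 86.3 and 95.5 in heterozygous and at 88.7, 82.7, 77.8 and 62.0 CPM in homozygous libraries. It was the only member whose homozygous and wild type libraries did not overlap, which held for 4.99% of all tested genes, and its log2 fold change of -0.26 ± 0.15 did not pass the test (adjusted p = 0.996, edgeR) and was -0.17 without homozygous replicate 4. Libraries of 0 members failed to overlap when heterozygous samples were set against wild type (2.51% of all genes did) or against homozygous ones (0.597%).

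Tekt2, a tektin of the doublet wall, had 37.3, 39.4 and 64.9 CPM in wild type, 82.0, 54.5, 47.8 and 46.0 CPM in heterozygous and 51.2, 57.6, 63.8 and 83.0 CPM in homozygous libraries. Its log2 fold change was 0.44 ± 0.26 in homozygous and 0.29 ± 0.26 in heterozygous against wild type samples, both short of the test (adjusted p = 0.996 and 1.0, edgeR). Wild type replicate 3 stood apart from the other wild type libraries, and without it the values were 0.74 and 0.59 (adjusted p = 0.783 and 0.872, edgeR). Without homozygous replicate 4 the first was 0.29, and without heterozygous replicate 1 the second was 0.07. Tekt3, a rare tektin, had 3.43, 3.21 and 1.05 CPM in wild type, 2.38, 1.18, 2.65 and 4.71 CPM in heterozygous and 2.02, 1.64, 1.47 and 1.55 CPM in homozygous libraries. It had the lowest fold change of all members, at -0.61 ± 0.47 on the log2 scale, and its wild type libraries covered the whole homozygous range through wild type replicate 3 alone. Leaving out that library gave -0.99 and leaving out wild type replicate 1 gave -0.35, and the adjusted p without the former was 0.783 (edgeR).

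The other members singled out by p-value moved less than their intervals. Cfap97 (-0.34 ± 0.22), Cfap69 (-0.28 ± 0.21), a protein also known from OSN cilia, Cfap61 in heterozygous against wild type samples (-0.28 ± 0.20), a calmodulin-binding spoke protein, and Dnah7b in the same comparison (-0.27 ± 0.24) did not pass the test. Without wild type replicate 3 the value of Cfap69 was -0.085, against -0.43 without wild type replicate 2, and that of Dnah7b turned to 0.065. Cfap97 was at -0.20 without homozygous replicate 4 and at -0.49 without homozygous replicate 1, and Cfap61 at -0.17 without wild type replicate 1. In homozygous against heterozygous samples Dnah1, an inner arm heavy chain, was at 0.24 ± 0.14, Cfap61 at 0.29 ± 0.19, Rsph3a at 0.23 ± 0.22, Tekt5 at -0.28 ± 0.27 and Tekt3 at -0.69 ± 0.44. Without heterozygous replicate 2 Rsph3a was at 0.08, without heterozygous replicate 3 Tekt5 was at -0.18, and without heterozygous replicate 4 Tekt3 was at -0.33. By family, 8 of 11 Dnah, 10 of 17 Cfap, 4 of 6 tested Rsph and 2 of 5 Tekt genes were higher in homozygous than in wild type samples, with medians of 0.09, 0.02, 0.11 and -0.05, to be read beside the 8746 of 16574 genes that were higher.

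Skeletal muscle genes differed strongly between the same libraries, from 7.13 to 1562 CPM in sum (7.13 to 56.0 CPM in wild type, 16.5 to 1562 in heterozygous and 19.5 to 733 in homozygous libraries). Their part in the genotype values of the axoneme genes was not tested.

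Beyond genotype, many members varied among libraries. Between the lowest and the highest library 26 of the 42 members varied by 2-fold or more, beside 48.1% of all tested genes, and the median SD of log2 CPM was 0.34 for the members and 0.30 for all genes. Some members kept a nearly fixed ratio to Foxj1. A gene was said to follow Foxj1 when the SD of its log2 ratio to Foxj1 over the 11 libraries was below both its own SD and that of Foxj1 (0.35). This held for 14 of the other 41 members, and for 9.28% of all tested genes. Both genes of a ratio come from the same library and share its depth and scaling factor, and the ratio is given as a description without a test.

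Dnaic2 kept the closest ratio, with 69.7, 57.2 and 39.4 CPM in wild type, 54.3, 39.9, 50.6 and 79.7 CPM in heterozygous and 71.8, 70.5, 52.7 and 43.1 CPM in homozygous libraries. Its ratio to Foxj1 stayed between 0.231 and 0.283, and it ranked 7 of all 16573 genes in likeness. Next among the members came Rsph3a (SD of the log2 ratio 0.14), Rsph1 (0.15), Tekt4 (0.15) and Cfap45, which lies inside the doublet wall (0.16). Rsph1 was between 44.7 and 100 CPM, with its lowest value in heterozygous replicate 2 and its highest in heterozygous replicate 4, and its ratio to Foxj1 stayed between 0.264 and 0.365. Tekt4, at 22.1 to 57.0 CPM, kept a ratio of 0.137 to 0.196. The other followers were Cfap126, Rsph3b, Tekt1, Cfap57, Cfap58, Cfap52, Dnah8, Dnah10 and Cfap53. Rsph3a and Rsph3b share most of their sequence and may share reads.

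The followers together summed to 376 CPM in heterozygous replicate 2 and 774 CPM in heterozygous replicate 4, with 405 CPM in wild type replicate 3 and 739 CPM in homozygous replicate 2. By genotype they were at 551 ± 143 (SD, n = 3), 544 ± 166 (n = 4) and 589 ± 167 CPM (n = 4) in wild type, heterozygous and homozygous samples. Leaving out each library in turn gave 11 to 17 followers, beside 8.02 to 10.6% of all genes. Within set 1 alone there were 21, beside 9% of all genes, and within set 2 alone 9, beside 11.9%.

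**Figure D4:**
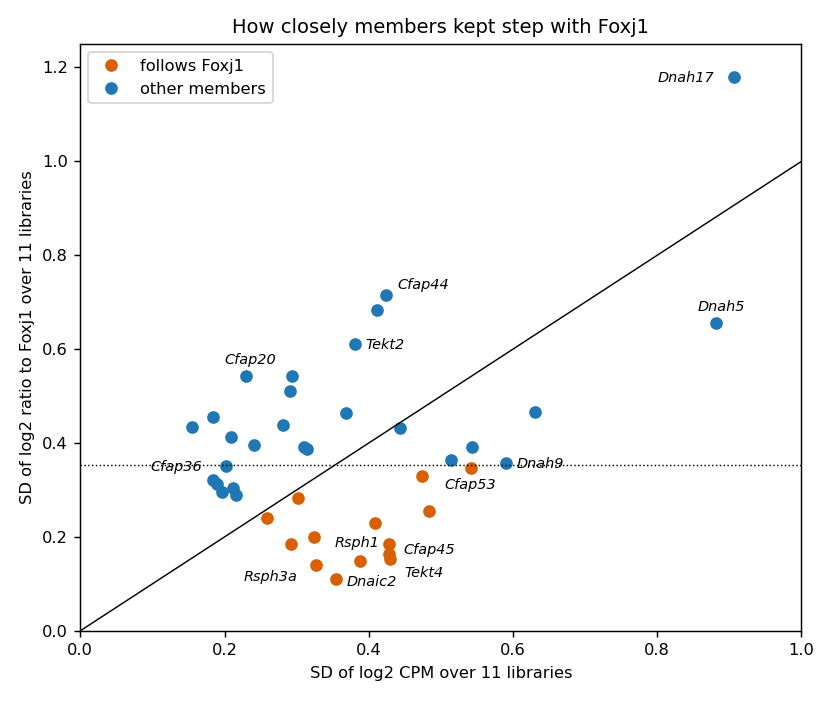
SD of each member's log2 CPM (x axis) against the SD of its log2 ratio to Foxj1 (y axis) over the 11 libraries; the dotted line is the SD of Foxj1 itself (0.35) and the solid line marks equal values. The 14 followers lie below both lines, with Dnaic2 lowest at 0.11, and Dnah17 lies highest at 1.18.

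The members farthest from Foxj1 moved by more than it or against it. Dnah5, the outer arm motor, was at 169, 141 and 69.3 CPM in wild type, 62.7, 55.1, 136 and 187 CPM in heterozygous and 203, 229, 64.5 and 40.7 CPM in homozygous libraries, a range of 5.62-fold against 2.19-fold for Foxj1. Dnah17 was at 2.78, 2.89 and 9.2 CPM in wild type, 10.9, 7.37, 3.70 and 2.25 CPM in heterozygous and 2.27, 3.16, 7.04 and 12.2 CPM in homozygous libraries. It was high where Dnah5 was low, and its ratio to Foxj1 varied 8.56-fold.

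These differences followed the library sets. In set 2, 9 members were lower than in every library of set 1, beside 10.9% of all tested genes in that direction. They were Dnah5, Dnah9, Dnah6, Rsph4a, Cfap52, Cfap53, Cfap57, Cfap58 and Tekt1, the last by a narrow gap (39.42 CPM lowest in set 1, 39.36 highest in set 2). Of these, Cfap52, Cfap53, Cfap57, Cfap58 and Tekt1 were also followers of Foxj1, and the others were not. Dnah5 was at 136 to 229 CPM in set 1 and at 40.7 to 69.3 CPM in set 2, a difference of -1.60 on the log2 scale. Dnah9 was at 75.3 to 109 and at 38.5 to 56.1 CPM, and Rsph4a at 57.9 to 76.5 and at 26.2 to 43.3 CPM.

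The opposite direction was seen in 5 members, Cfap20, Cfap44, Cfap70, Cfap74 and Dnah17, which were higher in every library of set 2 than in set 1, beside 16% of all tested genes. Cfap44 was at 84.8 to 100 CPM in set 1 and at 141 to 197 CPM in set 2, and Cfap74, a central pair protein, at 18.7 to 29.4 and at 34.7 to 44.0 CPM. Dnah17 differed most, by 1.65 on the log2 scale. The sets were drawn from the whole profile of the libraries, so that differences between them are common among all genes. Foxj1 itself overlapped, at 210 to 305 CPM in set 1 and 139 to 233 CPM in set 2. Dnah heavy chains stood at both ends, and the heavy chains Dnah1, Dnah2 and Dnah11 overlapped between the sets.

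**Figure D5:**
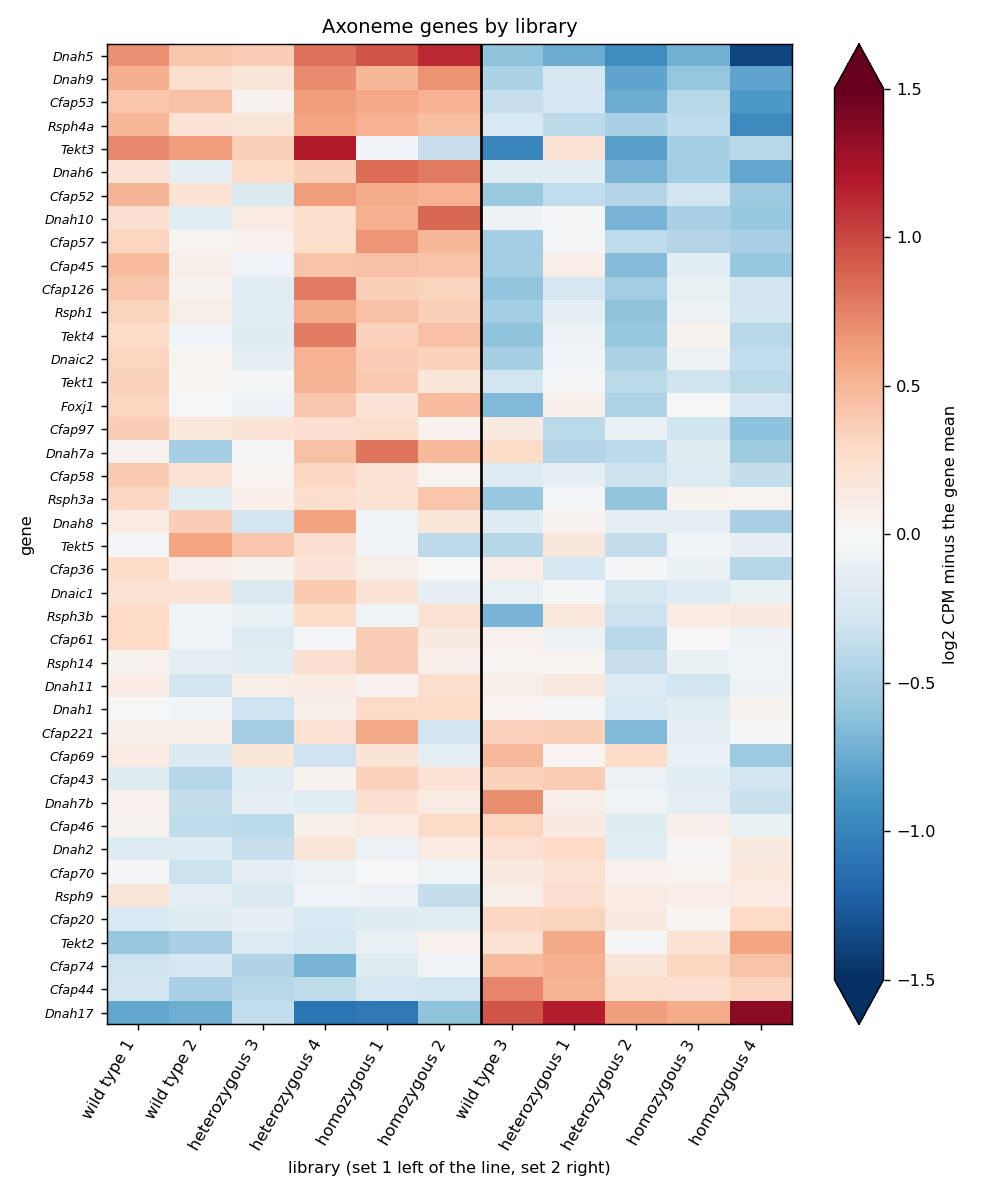
Log2 CPM of 42 members minus the gene's mean over the 11 libraries, with genes ordered by the difference between the sets and the line dividing set 1 from set 2. Dnah5 at the top is low in all 5 libraries of set 2 and Dnah17 at the bottom is high in them, by -1.60 and 1.65 on the log2 scale.

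Genotype values were also taken within the sets, where each genotype has only 1 or 2 libraries. Within set 1, Foxj1 differed by 0.17 on the log2 scale between homozygous and wild type, by 0.0039 between heterozygous and wild type and by 0.17 between homozygous and heterozygous libraries. Within set 2 the values were 0.53, 0.47 and 0.06, the first and second of which rest on 1 wild type library. The median member differed by 0.16 in set 1 and by -0.10 in set 2 between homozygous and wild type libraries, and so took opposite signs. Markers of other cells overlapped in sum between the sets. The horizontal basal cell genes (Krt5, Krt14, Krt15, Trp63 and Icam1, all detected) summed to 110 to 273 CPM in set 1 and 80.6 to 122 CPM in set 2, with 1 of 5 (Krt14) lower in all of set 2 beside 10.9% of all tested genes, and the sustentacular cell genes (4 of 4 detected) to 1556 to 2805 and 2733 to 3383 CPM. The sustentacular genes split, since Cbr2 was higher in all of set 2, Ermn was lower in all of it (91.0 to 114 CPM in set 1, 37.0 to 87.1 CPM in set 2), and Cyp2g1 and Cyp1a2 overlapped. The Bowman's gland genes summed to 1611 to 4476 CPM in set 1 and 680 to 1935 CPM in set 2, with 1 of 4 (Sox9) lower in all of set 2, and of the 6 immature OSN genes 1 (Gng8) was higher in all of it, beside 16% of all tested genes. Their part in the set differences of the axoneme genes was not tested.

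Other genes of the cilium, from 6 lists drawn up by structure, were read beside the members. Of the 74 tested genes, 0 passed the test in any comparison, and 1 was at an unadjusted p under 0.05, namely Spef2, a central pair protein, in homozygous against wild type samples (log2 fold change -0.53, adjusted p = 0.996, edgeR), where 3.02% of all tested genes were at such a p. Among the regulators above or beside Foxj1, Gmnc, which starts the multiciliated programme, was at 0.602 to 8.50 CPM. By the rule 0 of 13 regulators followed Foxj1, and 13 genes are too few to set this apart from the 9.28% of all tested genes. A gene with a small SD of its own may not follow even where its ratio is close. The regulator Trp73 did not, with an SD of the log2 ratio of 0.209, beside 0.348 for the follower Cfap53. Followers were found among the dynein assembly and docking factors (6 of 16, with Ccdc151, a docking complex protein, the closest at an SD of the log2 ratio of 0.12), the dynein light chains (3 of 5), the nexin link and ruler proteins (6 of 9, Ccdc40 and Ccdc65 among them), the central pair (5 of 10, Hydin among them) and other ciliated cell genes (9 of 21, Tubb4b and Lrrc23 among them), beside 9.28% of all tested genes. Following Foxj1 was not limited to cilium genes, since 2 of 5 horizontal basal cell genes (Krt14 and Trp63) and 2 of 4 Bowman's gland genes (Sox9 and Aqp5) did so too. In these lists 7 of 16, 1 of 5, 5 of 9, 3 of 10 and 7 of 21 genes were lower in all of set 2, and 2 of 13 regulators, beside 10.9% of all tested genes. In the opposite direction stood 2 dynein assembly and docking genes, 1 nexin link and ruler gene and 1 regulator, beside 16% of all genes.

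Of the 100 genes most like Foxj1 by this ratio, 5 were members and 5 came from the cilium lists, which is 12.2% of the members and 6.76% of the list genes. Members made up 0.247% and the list genes 0.447% of all the genes ranked, and 5% each of these 100, most of which were neither. The nearest genes of all were Gprc5b, Ribc1 and 2410004P03Rik, with SDs of the log2 ratio of 0.09, 0.09 and 0.10. The lists do not name every cilium gene, so genes in neither group may include some.

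Promoter sequences were read because members that move together may share letters there. RFX factors, which act on cilium genes beside Foxj1, bind the X-box, whose half-site is GTTGCC. In the RefSeq table (GRCm38.p6), which gives 250 bases before to 50 after each start, 38 of the 43 members had a promoter. Cfap53, Cfap97, Foxj1, Rsph1 and Rsph4a had no entry. GTTGCC was found on either strand in 13 of 38 members (34.2%), beside 14.1% of all 27025 symbols, and in 6 of 12 followers with a promoter and 7 of the 26 others. The 6 followers are shown with 30 bases each, 5′ to 3′ on the strand of the gene, with the half-site or its reverse complement in capitals, and with chromosome positions in GRCm38.p6:
Dnaic2 (chr11:114727381-114727410, plus strand): ccagggttgctaGGCAACtggtaaactccg
Tekt4 (chr17:25471586-25471615, plus strand): caatgttccttaGGCAACcaggaaccttgc
Tekt1 (chr11:72361880-72361909, minus strand): tgcgtccgtccgGTTGCCatagagaccgca
Rsph3b (chr17:6948323-6948352, minus strand): ctcgggttgctcGGCAACcgatgggggcgc
Dnah10 (chr5:124725083-124725112, plus strand): gctagggtcgccGTTGCCacggacgcccgc
Cfap58 (chr19:47937641-47937670, plus strand): gggggcgtggcgGTTGCCaggcgaccgaag

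The same half-site stood in members that did not follow Foxj1, and these serve as the contrast. Cfap44 and Cfap74 were both higher in set 2, and Tekt2 varied against Foxj1:
Cfap44 (chr16:44394768-44394797, plus strand): ggacgttgctatGGCAACcgcagtaaacgg
Cfap74 (chr4:155409191-155409220, plus strand): aagcagccttccGTTGCCatggagctgcgc
Tekt2 (chr4:126325693-126325722, minus strand): gggcggttgctcGGCAACcagagccgcaaa

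The forkhead core GTAAACA, on either strand, was found in 4 of 38 members (10.5%), beside 4.05% of all symbols, and in 0 of the 12 followers. Its members were Cfap20, Cfap43, Dnah17 and Tekt3. A match of letters in these windows is a description and not a binding site. The letters GTTGCC and GTAAACA do not overlap one another. The short forkhead spelling TGTTTA, which lies inside the core's reverse complement, stood in 9 of 38 members (23.7%), beside 15.1% of all symbols. GTTGCC followed directly by ANGG was in 3 members (7.89%), beside 1.22% of all symbols, and GTTGCCATG, which also contains it, in 1 (2.63%), beside 0.877%. A strict spelling of the X-box with both arms, GTTNCC and GGNAAC with 0 to 2 bases between, was in 0 members, beside 0.0333 to 0.529% of all symbols. Arms that differ from these letters were not searched. In the windows of Dnaic2, Rsph3b, Cfap44 and Tekt2 printed above, gttgct stands shortly before GGCAAC. All motifs were searched on both strands, and a missing match says only that these letters are not in the window.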

How the data were processed

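The members and gene lists were chosen with earlier results of these data known. Per the labels, total RNA of whole MOE was polyA selected and prepared with a directional kit. The authors trimmed the reads (Trimmomatic, version 0.36), aligned them to mm10 (HISAT2, version 2.1.0) and deposited raw counts per gene (featureCounts of Subread, version 1.6.2), and they also deposited a normalised signal, which is the count divided by a size factor of the library (DESeq2, version 1.20.0). The annotation, strand setting and treatment of reads with several positions are not given in the sources used here. Raw counts were used for all tests, and the normalised signal only to define the genes of 1 alternative.

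Counts were tested with edgeR (version 4.0.16, R version 4.3.3), with TMM scaling, filterByExpr by genotype (minimum count 10), a quasi-likelihood fit of 3 genotypes over 11 libraries and Benjamini-Hochberg adjustment over 16574 genes at 0.05. CPM were computed on the TMM-scaled library totals. Log2 CPM for the ratios and sets used a prior count of 2. Exon lengths, positions and transcripts came from GENCODE M21 (mm10), and a permutation test from scipy (version 1.17.1). Named genes were Foxj1, the 4 members of each family with the highest mean level per length, the 5 lowest p-values of each comparison and any member at 0 in all libraries (0 found). Other genes named, the following rule and the library sets were chosen after the data were seen. Alternatives were RLE scaling, DESeq2 (version 1.42.0), no filter, the genes of the normalised table, a replicate block, the library set as covariate and leaving out each library. The models were tested on simulated data first.

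The replicate numbers in the labels are not said to mark litters or batches. Same-numbered homozygous and wild type libraries deviated together from their group means (r = 0.33, 0.42 and 0.40), which treats them as pairs, whereas the other 2 comparisons gave negative r (-0.58 to -0.19). The libraries of each such homozygous and wild type pair also lie in the same set. A replicate block on the homozygous and wild type libraries alone was therefore added after seeing the data.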

Additional observations from a re-analysis of the deposited data

Results flagged for a closer look

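In 84 groups of 4 libraries, 2 members had a library whose gap to the nearest other took up most of the range of its group, where chance alone flags about 1 in 20 groups. Cfap52, a protein inside the doublet wall, was at 48.2 CPM in heterozygous replicate 4 and at 22.9 to 26.6 CPM in the other heterozygous libraries. Dnah11, an outer arm heavy chain, was at 29.9 CPM in heterozygous replicate 2 and at 36.8 to 38 CPM in the others of its group.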

How the results depend on the processing

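The count of members past the adjusted threshold was 0 in all 3 comparisons under every alternative run, while DESeq2 called 8, 3 and 2 genes among all genes. At an unadjusted p under 0.05 the count rose from 0 to 2 in homozygous against wild type samples with the library set as covariate (Tekt2 and Rsph3a), where 6.83% of all tested genes were at such a p. Leaving out each library in turn gave 0 to 2 members in that comparison, 0 to 1 in heterozygous against wild type and 0 to 1 in homozygous against heterozygous samples; the 2 (Tekt2 and Tekt3) and the 1 in heterozygous against wild type samples came without wild type replicate 3, where 4.25 and 3.66% of all genes were at such a p. Cfap97 was at such a p in homozygous against wild type samples without homozygous replicate 1, beside 4.36% of all genes. The 1 in homozygous against heterozygous samples came without heterozygous replicate 2 (Tekt3) or homozygous replicate 3 (Dnah1), beside 0.443 and 0.607% of all genes. Foxj1 changed sign in leave-one-out fits, whose log2 fold change ran from -0.046 (without wild type replicate 3) to 0.42, from -0.15 (without wild type replicate 3) to 0.32 and from -0.034 (without homozygous replicate 2) to 0.24 in the 3 comparisons; it was also -0.07 in the second without heterozygous replicate 4 and -0.03 in the third without heterozygous replicate 2. Dnah7b in heterozygous against wild type samples ran from -0.48 to 0.065, the latter without wild type replicate 3. The cause was not tested.

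With the replicate block over all libraries Foxj1 was at 0.21, 0.10 and 0.11, and no call changed. With the library set as covariate Foxj1 was at 0.29, 0.20 and 0.09, and the median of the members in heterozygous against wild type samples turned to 0.02. With the replicate block on the homozygous and wild type libraries alone, 1 member had an unadjusted p under 0.05 (Tekt4, log2 fold change 0.38, edgeR adjusted p = 0.740), beside 6.31% of all genes, and Foxj1 was at 0.31, while 39 of all 16163 genes passed the adjusted threshold beside 0 in the fit of all libraries. Depth limits most the members with the lowest mean CPM, which are Rsph6a, Tekt3, Tekt5, Cfap221 and Dnah17.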
